A study of Mus musculus with 8 samples.

Results

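Sialyltransferases are the Golgi enzymes that cap glycans with sialic acid, and 10 of them are described here in mouse acute myeloid leukaemia cells with and without excision of Cdc73. The 10 genes were taken by symbol from the 23361 rows of the deposited transcriptome table and were chosen with the FPKM values of that table in view. Their levels and the authors' q-values are therefore a description of these genes, and no test of the set was made. The floxed group was of genotype Cdc73fl/fl CreERT2 and the wild type group Cdc73 +/+ CreERT2. Both were of strain 129S6, came from bone marrow transformed with the MLL-AF9 oncogene, had been transduced with the tamoxifen-activated recombinase, and received 7.5 nM 4-hydroxytamoxifen (4OHT), so the recombinase and the drug are shared by all groups. Floxed and wild type cells were each sampled at 24 and 48 h, with 2 libraries in each of the 4 groups. The cells are described as established lines grown with interleukin 3; the number of clones in a line is not stated. No untreated library was analysed, and each genotype is a line of its own, so differences present before 4OHT cannot be told apart from those that followed it. The study asks what loss of Cdc73, a subunit of the PAF1 complex that accompanies RNA polymerase II, does to the transcriptome of these cells.

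Sialic acid is donated by CMP-sialic acid, which is made in the nucleus and carried into the Golgi. Each sialyltransferase attaches it to a given acceptor sugar through a given bond: ST3Gal enzymes form alpha2,3 bonds to galactose, ST6Gal enzymes alpha2,6 bonds to galactose, ST6GalNAc enzymes alpha2,6 bonds to N-acetylgalactosamine (GalNAc), and ST8Sia enzymes alpha2,8 bonds to another sialic acid. On blood cells these caps form part of the ligands of selectins, are read by Siglec receptors and hide the galactose that galectins bind.

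Each gene has a single FPKM per group in the table, that is, fragments counted per transcript length and library size, so levels below carry no SD and the duplicates cannot be seen apart. Total reads are not in the table, so depth is unknown. A call means a q under 0.05 in the authors' deposited table, with the direction of the FPKM values. Folds are ratios of FPKM, given where both groups reach 1 FPKM, and log2 differences are floxed minus wild type on the log2(FPKM + 1) scale, which understates low genes. Cdc73 itself stood at 5.96 FPKM in floxed and 26.2 FPKM in wild type cells at 24 h, and at 5.45 and 26.9 FPKM at 48 h, in an entry shared with another gene. All 7 myeloid leukaemia markers reached 1 FPKM, among them the haematopoietic surface gene Ptprc at 43.7 to 78.1 FPKM. None of the markers of B, T and stromal cells, 4 of each, did, and Pax5, Cd3e and Col3a1 were listed at 0 in all 4 groups.

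Of the 10 sialyltransferases, 4 were called lower in floxed cells at both times, and 1, St6galnac2, was far higher at both times. At 24 h, 5 were called lower and 1 higher; at 48 h, 5 were called lower and 2 higher. St3gal1, St3gal3, St6gal1 and St6galnac4 were called lower at both times, and St6galnac2 was called higher at both. The genotype contrast is the one whose values chose the members, so these counts are given beside the background and nothing is read from them. Over all 10987 genes tested at 24 h, 27.6% were called, 13.4% higher and 14.2% lower. At 48 h 56.8% of 11039 genes were called, 25.7% higher and 31.0% lower. Calls in the same direction at both times covered 11.2% of 10960 genes for lower and 10.2% for higher. In all, 9 of the 10 reached 1 FPKM in at least 1 group, and St3gal6 did not. With q under 0.01, members called numbered 5 at 24 h (1 higher, 4 lower) and 6 at 48 h (2 higher, 4 lower), beside 18.2% of all genes (8.86% higher, 9.32% lower) and 46.2% (21.1% higher, 25.1% lower). With q under 0.05 and a log2(FPKM + 1) difference of 2-fold or more, they numbered 1 at 24 h (higher) and 2 at 48 h (1 higher, 1 lower), beside 3.16% (1.62% higher, 1.54% lower) and 15.4% (8.58% higher, 6.87% lower). The median log2 difference of those 9 was -0.37 at 24 h and -0.45 at 48 h, against -0.01 and -0.06 over 11158 genes at that level.

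**Figure D1:**
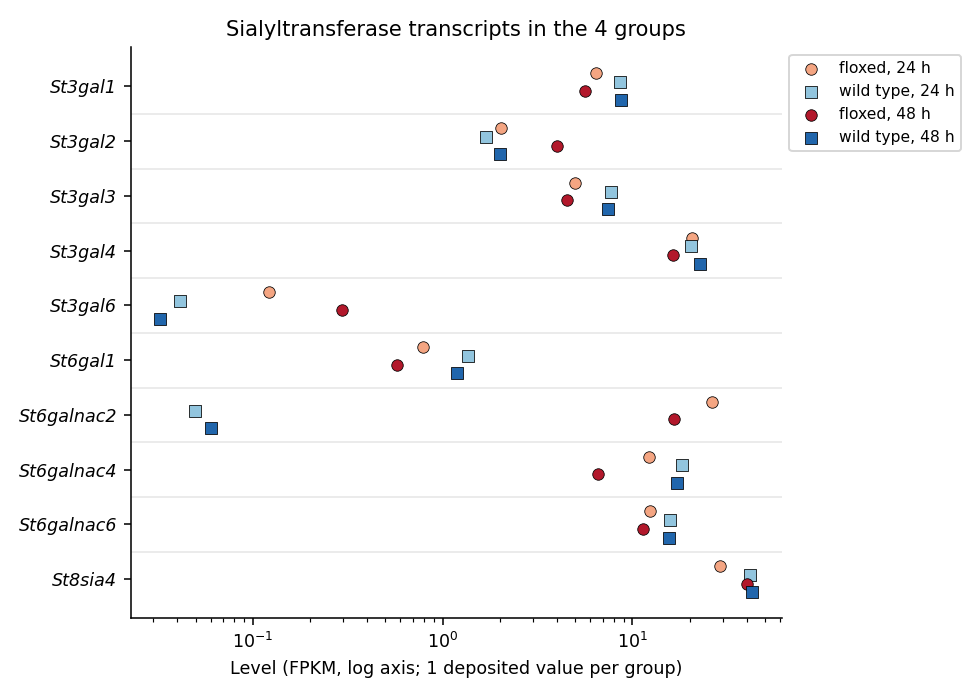
Level of each of the 10 sialyltransferase transcripts (FPKM, log axis), with circles for floxed and squares for wild type cells, light at 24 h and dark at 48 h; each symbol is the authors' single value for a group of 2 libraries. St6galnac2 stands at 26.4 and 16.6 FPKM in floxed cells and below 0.1 FPKM in wild type cells, while no other member differs by more than 2.60-fold where both lines reach 1 FPKM.

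Of the 10 symbols, 7 have a promoter entry in the RefSeq table (build GRCm38.p6, the assembly of mm10), each running from 250 bases before to 50 bases after the transcript start. Printed here are St3gal3 and St6galnac4, as the 2 members with a single promoter entry that were called lower at both times, and St8sia4, as the most abundant member. Capitals mark matches on either strand to the GC box, GGGCGG, and to the CCAAT box, CCAAT. The printed windows lie on chr4:118134897-118135196 (minus strand), chr2:32586828-32587127 (plus strand) and chr1:95667545-95667844 (minus strand), each written 5′ to 3′ along its gene.
St3gal3: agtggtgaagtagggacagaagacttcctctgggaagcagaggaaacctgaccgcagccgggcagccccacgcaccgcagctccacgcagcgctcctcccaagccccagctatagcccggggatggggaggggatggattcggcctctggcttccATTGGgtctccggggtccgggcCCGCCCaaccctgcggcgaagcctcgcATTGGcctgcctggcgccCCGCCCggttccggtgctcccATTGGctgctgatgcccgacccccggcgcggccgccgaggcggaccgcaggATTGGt
St6galnac4: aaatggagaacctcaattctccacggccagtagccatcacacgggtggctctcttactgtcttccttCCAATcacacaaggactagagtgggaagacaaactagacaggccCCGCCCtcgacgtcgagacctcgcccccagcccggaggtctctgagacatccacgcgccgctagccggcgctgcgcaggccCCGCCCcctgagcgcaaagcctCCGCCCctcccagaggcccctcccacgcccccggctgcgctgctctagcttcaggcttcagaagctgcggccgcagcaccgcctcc
St8sia4: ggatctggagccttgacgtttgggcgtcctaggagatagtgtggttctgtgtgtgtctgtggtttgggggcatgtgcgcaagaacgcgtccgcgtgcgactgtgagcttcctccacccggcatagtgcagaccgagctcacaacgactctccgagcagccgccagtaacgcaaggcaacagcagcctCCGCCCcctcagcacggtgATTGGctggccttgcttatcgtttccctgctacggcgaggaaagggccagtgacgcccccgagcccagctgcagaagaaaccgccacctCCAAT
The St3gal3 window holds 2 GC boxes and 4 CCAAT boxes, that of St6galnac4 holds 3 and 1, and that of St8sia4 holds 1 and 2. Over all 32851 promoter entries of the table, 35.7% hold a GC box and 37.4% a CCAAT box, so these windows share motifs that are common. A match is a run of letters and not a bound site. Of the windows not printed, St6galnac6 has 0 of either, the 3 entries of St6gal1 have 1, 0 and 0 GC boxes and 1, 1 and 2 CCAAT boxes, St3gal4 has 3 and 0, and the 2 entries of St3gal6 have 0 and 5 GC boxes and 1 and 0 CCAAT boxes. None of St3gal1, St3gal2 and St6galnac2 was matched.

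Among the enzymes that form alpha2,3 bonds, 2 were lower in floxed cells at both times, 1 was higher at 48 h, and 2 were not called. St3gal1, which caps the core galactose of O-glycans, lies on chromosome 15 from 67102875 to 67176830 (minus strand; member positions are from GENCODE M21 on mm10). It stood at 6.44 FPKM in floxed and 8.59 FPKM in wild type cells at 24 h, and at 5.66 and 8.65 FPKM at 48 h. The level in wild type cells was alike at both times, and that in floxed cells was lower, by 1.33-fold at first and by 1.53-fold later. St3gal1 has q = 0.0182 at 24 h and q = 0.00162 at 48 h in the authors' deposited table.

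St3gal3 (chromosome 4, 117932154 to 118134914, minus strand), which acts on the galactose ends of N-glycans and glycolipids, spans 203 kb and is the longest gene of the 10. Its level was 4.97 FPKM in floxed and 7.70 FPKM in wild type cells at 24 h, and 4.52 and 7.48 FPKM at 48 h. It was thus 1.55-fold lower in floxed cells at 24 h and 1.65-fold lower at 48 h, so the gap between the lines was of about the same size at both times. For St3gal3 the authors' deposited table lists q = 0.000449 and q = 0.000457. St3gal2 (chromosome 8, 110919922 to 110972480, plus strand), which caps O-glycans and gangliosides, was on the higher side in floxed cells. It stood at 2.02 FPKM in floxed and 1.70 FPKM in wild type cells at 24 h, with no call, and at 3.99 and 2.01 FPKM at 48 h. At 48 h it was 1.98-fold higher, with q = 0.000165 in the authors' deposited table, a value it shares with St6gal1 and St6galnac4.

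St3gal4 and St3gal6, which in mouse leukocytes act together on the sialylated ligands of selectins, were among the most and the least abundant members. St3gal4 (chromosome 9, 35046576 to 35119268, minus strand) stood at 20.5 FPKM in floxed and 20.3 FPKM in wild type cells at 24 h, and at 16.4 and 22.7 FPKM at 48 h, with q = 0.978 and q = 0.0990 in the authors' deposited table. It shares its entry in the table with Dcps and 4930581F22Rik, so the split of reads among them is uncertain. Dcps, a scavenger of mRNA caps, was called lower at both times, at 38.8 FPKM in floxed and 55.5 FPKM in wild type cells at 24 h and at 19.4 and 59.1 FPKM at 48 h. St3gal6 (chromosome 16, 58468125 to 58524243, minus strand) stood at 0.121 FPKM in floxed and 0.0412 FPKM in wild type cells at 24 h, and at 0.294 and 0.0326 FPKM at 48 h. The authors' deposited table gives it q = 1 at both times, so it is taken here as not tested.

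St6gal1, which forms the alpha2,6 bond to galactose on N-glycans that the B cell receptor Cd22 binds, was a minor member and lower in floxed cells. The gene lies on chromosome 16 from 23224740 to 23360350 (plus strand) and has 3 promoter entries in the RefSeq table. Its level was 0.791 FPKM in floxed and 1.36 FPKM in wild type cells at 24 h, and 0.576 and 1.20 FPKM at 48 h. The log2 differences were -0.40 and -0.48, with q = 0.00119 and q = 0.000165 in the authors' deposited table. All 4 values lie near or under the 1 FPKM level used here to take a gene as expressed.

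The 3 enzymes that act on GalNAc went opposite ways: St6galnac4 and St6galnac6 were on the lower side and St6galnac2 was high in floxed cells alone. St6galnac4, which adds a branching sialic acid to O-glycans already capped on galactose, was the member furthest below its wild type level at 48 h. It stood at 12.2 FPKM in floxed and 18.2 FPKM in wild type cells at 24 h, which is 1.49-fold lower. At 48 h it stood at 6.60 and 17.2 FPKM, which is 2.60-fold lower. St6galnac4 has q = 0.00119 at 24 h and q = 0.000165 at 48 h in the authors' deposited table. St6galnac6, which acts mainly on gangliosides, stood at 12.4 FPKM in floxed and 15.8 FPKM in wild type cells at 24 h without a call, and at 11.4 and 15.6 FPKM at 48 h. That was 1.37-fold lower at 48 h, with q = 0.0222 in the authors' deposited table. The pair are neighbours on the plus strand of chromosome 2, St6galnac4 from 32587095 to 32599698 and St6galnac6 from 32599709 to 32620806, with 10 bases between them, so reads that run past the end of the first could be counted for the second.

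St6galnac2, which adds sialic acid to the first GalNAc of O-glycans on proteins, had the widest difference of the 10. It stood at 26.4 FPKM in floxed and 0.0497 FPKM in wild type cells at 24 h, and at 16.6 and 0.0600 FPKM at 48 h. The transcript was thus near 0 in wild type cells at both times. By value it was among the 2 most abundant members in floxed cells at both times, though at 48 h St3gal4 stood close to it at 16.4 FPKM. The log2 difference was 4.70 at 24 h and 4.05 at 48 h, where it held ranks 29 and 46 from the highest among 11158 genes. Its q was 0.00682 at 24 h and 0.000863 at 48 h in the authors' deposited table. GENCODE M21 places it on the minus strand of chromosome 11, 116675303 to 116694868, and a second model with the same symbol runs from 116677483 to 116681290 inside it. Eosinophil marker genes were also higher in floxed cells by sum: the 4 of them summed to 137 FPKM in floxed and 20.1 FPKM in wild type cells at 24 h, and to 112 and 11.2 FPKM at 48 h. Of these, 3 were called higher at 24 h and 4 at 48 h, and none was listed at 0. Single genes carry most of these sums at 24 h, Prg2 with 92.6 FPKM in floxed cells and Ear2 with 17.6 FPKM in wild type cells. Ear2, whose entry is shared with another gene, stood at 20.3 FPKM in floxed cells at 24 h and was not called then. Over all tested genes, 13.4% were called higher at 24 h and 25.7% at 48 h. Their part in the St6galnac2 difference was not tested. In such bulk libraries, more cells of a kind and more RNA per cell cannot be told apart.

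St8sia4, a polysialyltransferase that builds chains of alpha2,8-linked sialic acid, was the most abundant member in every group. It is on chromosome 1 (95587682 to 95667571, minus strand) and stood at 29.1 FPKM in floxed and 41.6 FPKM in wild type cells at 24 h, and at 40.2 and 42.7 FPKM at 48 h. It was 1.43-fold lower at 24 h, with q = 0.00705 in the authors' deposited table, and at 48 h the levels differed by 1.06-fold without a call (q = 0.733). The difference between the times was not tested.

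**Figure D2:**
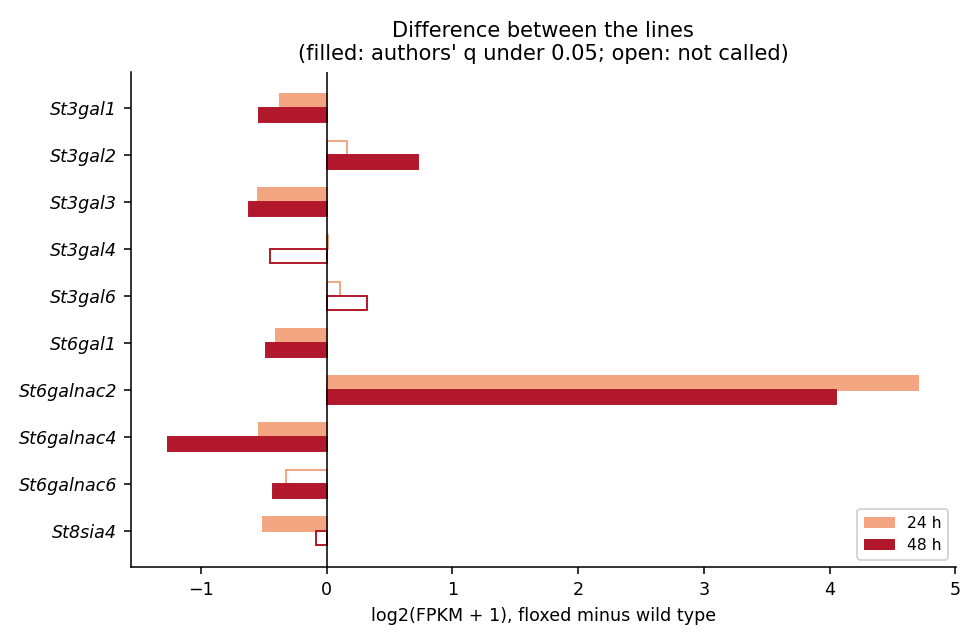
Difference between floxed and wild type cells (log2(FPKM + 1), floxed minus wild type) for each sialyltransferase at 24 h (light) and 48 h (dark); filled bars have a q under 0.05 in the authors' table and open bars do not. St6galnac2 reaches 4.70 and 4.05, St6galnac4 goes from -0.54 at 24 h to -1.26 at 48 h, and St3gal2 is the other member called higher, at 0.73 at 48 h.

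The order of the members by level was the same at 24 and 48 h within each line. In floxed cells it ran St8sia4, St6galnac2, St3gal4, St6galnac6, St6galnac4, St3gal1, St3gal3, St3gal2, St6gal1 and St3gal6. In wild type cells it ran St8sia4, St3gal4, St6galnac4, St6galnac6, St3gal1, St3gal3, St3gal2, St6gal1, St6galnac2 and St3gal6. FPKM is scaled to transcript length, so levels of different genes can be set side by side, but with no spread between duplicates it cannot be said which neighbours in the order differ. St6galnac4 and St6galnac6 at 12.2 and 12.4 FPKM in floxed cells at 24 h are such neighbours, as are St6galnac2 and St3gal4 at 16.6 and 16.4 FPKM at 48 h. Over the 7 members at 1 FPKM or more in all groups, the level at 48 h over that at 24 h ran from 0.54 (St6galnac4) to 1.97 (St3gal2) in floxed cells, with a median of 0.91. In wild type cells it ran from 0.94 to 1.18, with a median of 1.01, for the same genes at the ends. Whether both times were scaled in 1 run is not stated, so no call is made on such ratios.

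Summed over the members with St6galnac2 counted, the sialyltransferase transcript level was alike in the lines at 24 h and lower by value in floxed cells at 48 h. Without St6galnac2 it was lower by value in floxed cells at both times. The 10 summed to 115 FPKM in floxed and 115 FPKM in wild type cells at 24 h, and to 106 and 118 FPKM at 48 h. Without St6galnac2 the sums were 88.6 FPKM in floxed and 115 FPKM in wild type cells at 24 h, and 89.6 and 117 FPKM at 48 h. By bond, the 3 GalNAc enzymes held 44.4% of the sum in floxed and 29.5% in wild type cells at 24 h, and 32.6% and 28.0% at 48 h. Among the members without St6galnac2, the order of the lines was turned. The GalNAc enzymes then summed to 24.7 FPKM in floxed and 34.0 FPKM in wild type cells at 24 h, and to 18.0 and 32.8 FPKM at 48 h. St6galnac1, a GalNAc enzyme outside the 10, is not in these sums. It stood at 8.08 FPKM in floxed and 0.0232 FPKM in wild type cells at 24 h, and at 6.12 and 0.00646 FPKM at 48 h. St8sia5, which forms alpha2,8 bonds, is left out too, at 10.1 and 9.31 FPKM at 24 h and at 6.01 and 8.80 FPKM at 48 h. The sums and shares thus depend on which genes are counted. The shares of the other bonds are of a total that includes St6galnac2. The 5 alpha2,3 enzymes held 29.6% in floxed and 33.2% in wild type cells at 24 h, and 29.0% and 34.7% at 48 h. St8sia4 held 25.3% and 36.1% at 24 h, and 37.9% and 36.3% at 48 h. The transcript sum does not measure enzyme activity or sialic acid on the cells.

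**Figure D3:**
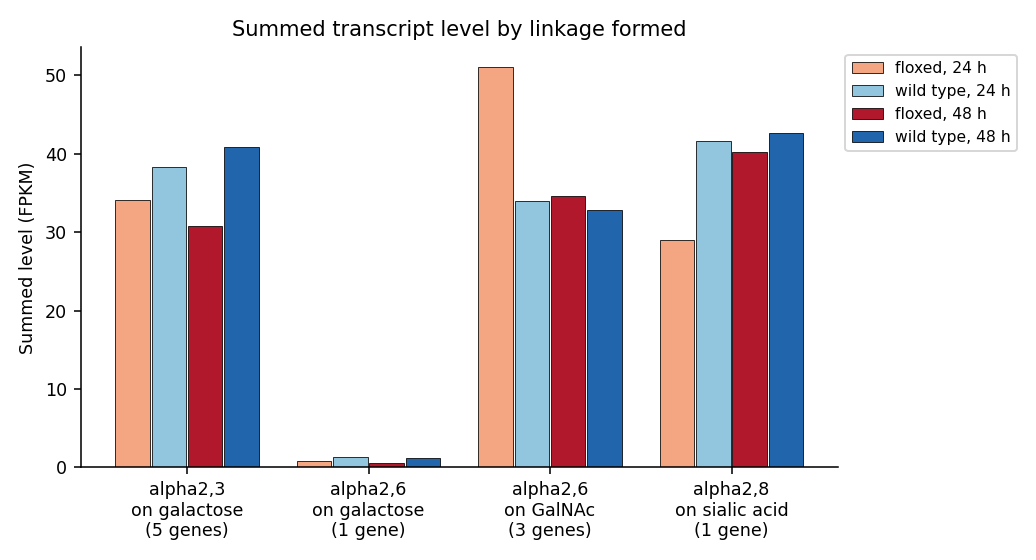
Summed FPKM of the 10 member sialyltransferases grouped by the bond they form, for floxed and wild type cells at 24 h (light) and 48 h (dark). Each bar is a sum of the authors' group values, and St6galnac1 and the other sialyltransferases outside the 10 are left out. The GalNAc group stands at 51.0 FPKM in floxed and 34.0 FPKM in wild type cells at 24 h, and at 34.6 and 32.9 FPKM at 48 h; without St6galnac2 it is lower in floxed cells at both times (24.7 against 34.0 FPKM and 18.0 against 32.8 FPKM).

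The genes next to St6galnac2 on chromosome 11 also had higher values in floxed cells, among them a further sialyltransferase that was not called. This neighbourhood was chosen after its values were seen. St6galnac1, which makes the sialyl-Tn structure on O-glycans and lies 70.4 kb from St6galnac2 in the table, stood at 8.08 FPKM in floxed and 0.0232 FPKM in wild type cells at 24 h, and at 6.12 and 0.00646 FPKM at 48 h. It has no call, with q = 0.246 and q = 0.327 in the authors' deposited table, although its log2 differences of 3.15 and 2.82 are far wider than those of most called members. BC018473, which lies between them, stood at 38.6 FPKM in floxed and 0.0417 FPKM in wild type cells at 24 h, and at 27.5 and 0.0473 FPKM at 48 h. Mxra7, on the far side of St6galnac1, stood at 3.66 and 0.0587 FPKM at 24 h with a call, and at 1.11 and 0.0372 FPKM at 48 h without one. On the other side of St6galnac2, 1810032O08Rik stood at 18.9 FPKM in floxed and 4.83 FPKM in wild type cells at 24 h, and at 23.3 and 4.23 FPKM at 48 h, and Gm11744 at 1.27 and 0.229 FPKM and at 1.46 and 0.331 FPKM. 1810032O08Rik shares its entry in the table with other genes, so its level is uncertain. No rule sets where this stretch ends: neighbours on either side, Cygb, Rhbdf2 and Jmjd6 among them, were also higher by value in floxed cells at both times.

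Among the other neighbours within 200 kb, most of those called were higher in floxed cells, and Mettl23 alone was called lower. Rhbdf2 was called higher at both times. It stood at 9.46 FPKM in floxed and 6.76 FPKM in wild type cells at 24 h, and at 16.0 and 6.29 FPKM at 48 h. Its log2 difference at 48 h was 1.22, beside 0.89 for Gm11744 and 1.02 for Mxra7. Gm11744 and Mxra7 were below 1 FPKM in wild type cells, where this scale understates differences, so no order is read from these values. Cygb, between Rhbdf2 and Gm11744, stood at 0.214 and 0.211 FPKM in floxed cells, was listed at 0 in wild type cells at both times and was not tested. Jmjd6, a nuclear hydroxylase, was higher at both times, by 1.34-fold and 1.43-fold. Prpsap1 was called higher at both times too, by 1.54-fold and 1.77-fold. Ube2o was called higher at 24 h alone, by 1.40-fold, and stood at 5.65 FPKM in floxed and 5.70 FPKM in wild type cells at 48 h. Mettl23 was lower, at 5.09 FPKM in floxed and 13.3 FPKM in wild type cells at 24 h and at 4.24 and 15.2 FPKM at 48 h, and the splicing factor gene Srsf2 stood at 413 and 420 FPKM at 24 h and at 316 and 375 FPKM at 48 h without a call. Within 200 kb of St6galnac2, 12 neighbours reached 1 FPKM, of which 8 were called higher and 1 lower at 24 h, and 6 higher and 1 lower at 48 h. Over all tested genes, 13.4% were called higher and 14.2% lower at 24 h, and 25.7% and 31.0% at 48 h. Neighbours called higher by 2-fold or more on that scale numbered 3 at 24 h and 3 at 48 h around St6galnac2, beside 1.62% and 8.58% of all tested genes. Around each other member they numbered 0 at 24 h and at most 1 at 48 h. Those windows are not alike in size: they held from 0 (St8sia4) and 1 (St3gal1, St3gal6) to 14 (St6galnac4) neighbours at 1 FPKM. In GENCODE M21, 1810032O08Rik on the plus strand overlaps the end of St6galnac2 on the minus strand by 497 bases. In the table their entries lie 906 bases apart. Whether counting used strand is not stated, so reads of the pair may not be told apart.

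**Figure D4:**
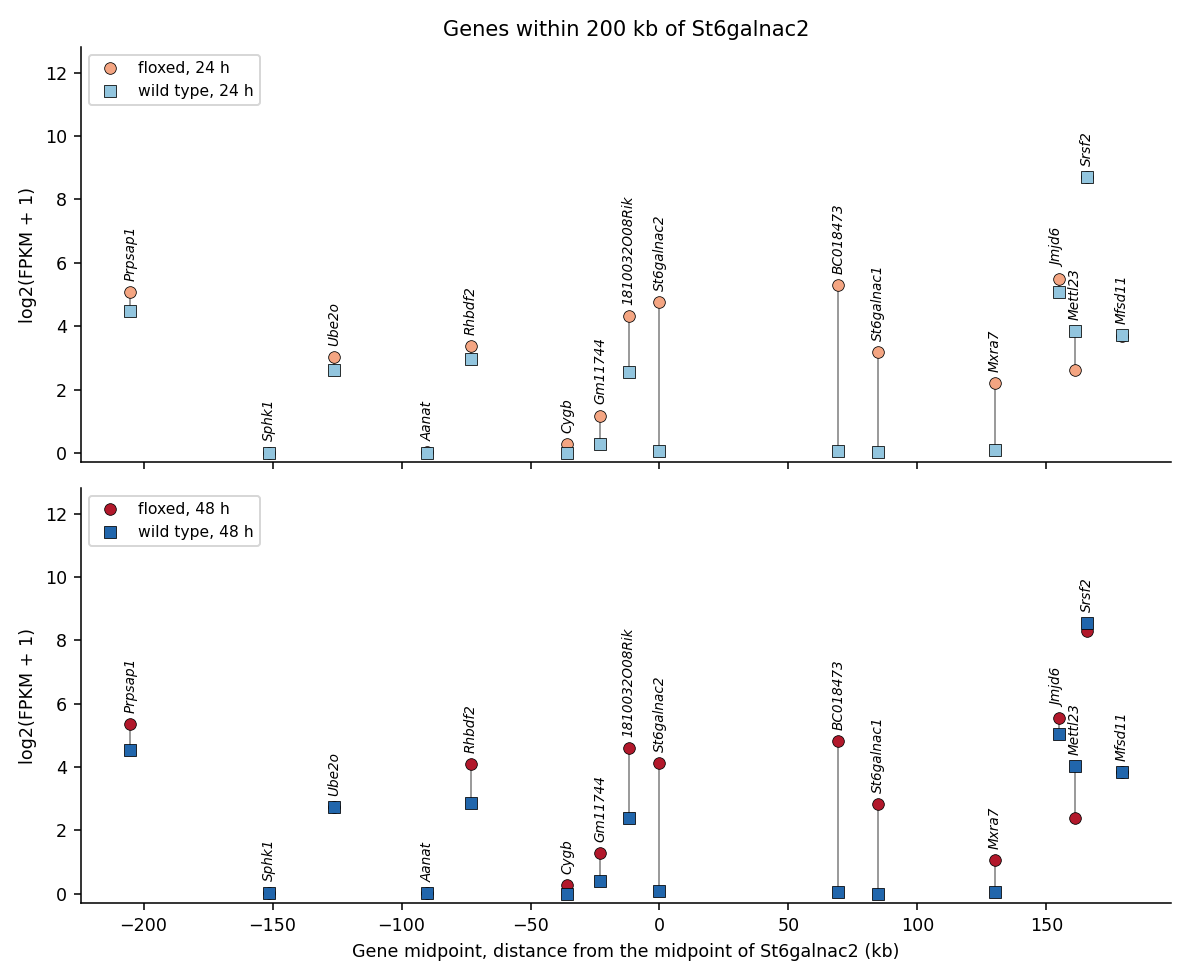
Level (log2(FPKM + 1)) of St6galnac2 and every gene of the table within 200 kb of it, small RNAs left out, by distance of gene midpoints in kb; circles are floxed and squares wild type cells, with 24 h in the upper and 48 h in the lower panel, and grey lines join the values of a gene. From Aanat, which does not exceed 0.0263 FPKM, to Jmjd6 each circle stands above its square at both times. The order is turned at Mettl23 at both times, and at Ube2o, next to Aanat on the other side, at 48 h alone.

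Over the 4 groups, the genes whose profile lay nearest to that of St6galnac2 (Euclidean distance between log2(FPKM + 1) profiles, each minus its own mean) were BC002163, Gm8580, Prg2, BC018473 and Gm10653, at distances of 0.24 to 0.69. Prg2, which encodes a basic protein of eosinophils, stood at 92.6 FPKM in floxed and 1.94 FPKM in wild type cells at 24 h, and at 66.6 and 1.31 FPKM at 48 h. BC002163 stood at 40.3 and 0.577 FPKM at 24 h, and at 31.3 and 0.671 FPKM at 48 h. BC002163, Gm8580 and Gm10653 share their entry in the table with other genes, so their levels are uncertain. Likeness over 4 values says only that these genes were high in floxed cells at both times.

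The other 10 mouse sialyltransferases of a list of such genes added little transcript apart from St6galnac1 and St8sia5. St8sia5, which acts on gangliosides, stood at 10.1 FPKM in floxed and 9.31 FPKM in wild type cells at 24 h without a call, and at 6.01 and 8.80 FPKM at 48 h, where it was 1.47-fold lower (q = 0.00863 in the authors' deposited table). St3gal5, the GM3 synthase that starts ganglioside sialylation, stood at 0.795 and 1.20 FPKM at 24 h and was called lower, and at 1.66 and 0.624 FPKM at 48 h and was called higher; it shares its entry with another gene. St6gal2, St6galnac3, St8sia2 and St8sia6 were listed at 0 in all groups, and St6galnac5, St8sia1 and St8sia3 did not exceed 0.0348 FPKM.

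Some genes that supply the donor sugar were called lower in floxed cells at 48 h. Over all tested genes, 13.4% were called higher and 14.2% lower at 24 h, and 25.7% and 31.0% at 48 h. The counts of these lists are given beside those shares and nothing is read from them. Of the 5 genes of CMP-sialic acid synthesis and transport, 1 was called higher and 0 lower at 24 h, and 0 higher and 2 lower at 48 h, with median log2 differences of 0.16 and -0.17. Gne, the enzyme that commits sugar to sialic acid synthesis, stood at 13.3 FPKM in floxed and 28.8 FPKM in wild type cells at 48 h, which is 2.17-fold lower. Nanp, which dephosphorylates the sialic acid precursor, was 2.49-fold lower at 48 h, at 8.35 and 20.8 FPKM. The gene called at 24 h was Slc35a1, the Golgi carrier of CMP-sialic acid, at 16.6 FPKM in floxed and 9.03 FPKM in wild type cells, which is 1.84-fold higher; at 48 h it stood at 10.3 and 9.39 FPKM. Of 4 expressed genes that make UDP-GlcNAc, the sugar from which sialic acid is built, 0 were called at 24 h and 3 were lower at 48 h, Gnpnat1 (whose entry is shared with another gene) 1.95-fold, Uap1 1.79-fold and Gfpt1 1.37-fold. Nans and Cmas had no call at either time and stood at 84.0 and 27.6 FPKM in floxed cells and at 86.8 and 31.2 FPKM in wild type cells at 48 h.

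Genes that build the acceptor sugars were called in both directions. The counts below stand beside 13.4% of all tested genes called higher and 14.2% lower at 24 h, and 25.7% and 31.0% at 48 h. Of 7 expressed galactosyltransferase genes, 2 were higher and 3 lower at 24 h, and 1 was higher and 4 lower at 48 h, with medians of 0.09 and -0.54. B4galt4, which adds galactose to GlcNAc ends, had the widest difference, 3.60 FPKM in floxed and 11.2 FPKM in wild type cells at 24 h and 1.40 and 14.3 FPKM at 48 h, or 10.2-fold lower at 48 h. C1galt1c1, the chaperone that the core 1 O-glycan galactosyltransferase needs, was 2.18-fold lower, B4galt5 1.51-fold lower and B4galt3 2.15-fold higher at 48 h. Of 10 expressed genes that start or branch O-glycans, 1 was higher and 3 lower at 24 h, and 3 were higher and 5 lower at 48 h, with medians of -0.17 and -0.30. Galnt3 was 2.88-fold lower and Galnt7, which shares its entry with another gene, 2.52-fold lower, while Galnt10 was 2.82-fold higher and Gcnt2, which makes branched poly-lactosamine, stood at 3.37 and 0.415 FPKM at 48 h. Of 5 expressed N-glycan branching genes, Mgat5 was 2.69-fold lower and Mgat1 1.73-fold higher at 48 h. None of the 3 ganglioside genes Ugcg, B4galnt1 and B3galt4 was called at either time. Fut7, which completes sialyl Lewis x on alpha2,3-capped chains, stood at 4.09 FPKM in floxed and 7.20 FPKM in wild type cells at 24 h and at 3.37 and 8.77 FPKM at 48 h. It was 2.60-fold lower at 48 h, the widest of 3 called of 4 expressed fucosyltransferase genes; the others were Fut8 at 1.37-fold and Fut4 at 1.36-fold lower.

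Genes that remove or recycle sialic acid were called in both directions, and those called among its readers were higher at 48 h. Shares over all tested genes were 13.4% called higher and 14.2% lower at 24 h, and 25.7% and 31.0% at 48 h. Of 7 expressed turnover genes, 2 were called higher and 1 lower at 24 h, and 2 higher and 2 lower at 48 h, with medians of 0.15 and 0.13. Neu1, the lysosomal sialidase, stood at 60.8 FPKM in floxed and 38.4 FPKM in wild type cells at 24 h and at 72.0 and 42.5 FPKM at 48 h, or 1.58-fold and 1.70-fold higher. Ctsa, its protective partner, was 1.36-fold higher at 48 h, though its entry is shared with other genes, while Siae, which takes acetyl groups off sialic acid, was 2.67-fold lower and the lysosomal exporter Slc17a5 1.37-fold lower. Of 6 expressed Siglec genes, 1 was higher and 1 lower at 24 h, and 5 were higher and 0 lower at 48 h, with medians of -0.17 and 0.46. Siglece, an inhibitory Siglec of mouse myeloid cells, stood at 6.50 FPKM in floxed and 1.30 FPKM in wild type cells at 48 h, or 4.99-fold higher. Siglecg stood at 1.05 and 0.234 FPKM, Siglec1 was 1.74-fold and Cd33 1.37-fold higher at 48 h. Of the 5 galectin genes, 0 were called at 24 h and 3 were higher at 48 h, among them Lgals3 at 245 FPKM in floxed and 58.6 FPKM in wild type cells, or 4.17-fold higher, and Lgals8 at 1.48-fold. Of 8 expressed carriers of sialylated glycans, 1 was higher and 1 lower at 24 h, and 4 were higher and 1 lower at 48 h. Cd24a, a small mucin-like protein, stood at 607 FPKM in floxed and 158 FPKM in wild type cells, Ptprc was 1.79-fold and Lamp1 1.53-fold higher, and Spn, the leukocyte mucin CD43, 1.70-fold lower.

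Markers of mature myeloid cells were also higher in floxed cells at 48 h. The 7 granulocyte genes summed to 7960 FPKM in floxed and 8920 FPKM in wild type cells at 24 h, and to 24805 and 6725 FPKM at 48 h, where all 7 were called higher and none was listed at 0. At 24 h Camp and Mmp8 were called higher and S100a9 and Mmp9 lower. The 5 monocyte and macrophage genes in the table summed to 1002 and 1113 FPKM at 24 h, and to 3559 and 663 FPKM at 48 h, with all 5 called higher at 48 h. Of these, Cd68 was called lower at 24 h. Single genes carry most of these sums: in floxed cells at 48 h S100a8 stood at 16678.5 FPKM, S100a9 at 6617.51 FPKM and Lyz2 at 3333 FPKM. Over all tested genes, 25.7% were called higher at 48 h. Their part in the sialyltransferase, Siglec and galectin values was not tested.

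**Figure D5:**
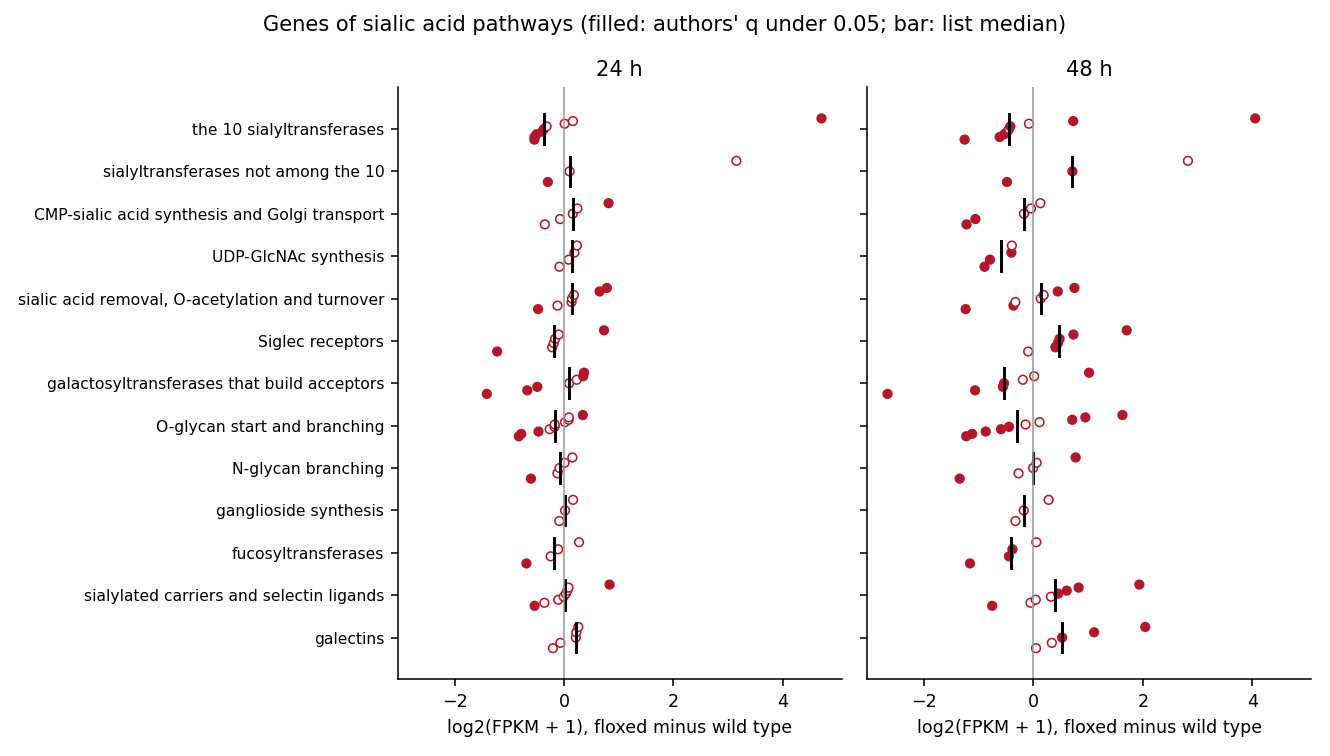
Difference between floxed and wild type cells (log2(FPKM + 1), floxed minus wild type) at 24 h (left) and 48 h (right) for every gene at 1 FPKM or more of the sialyltransferases and of the lists around them; filled points have a q under 0.05 in the authors' table, and black bars are list medians. The sialyltransferase medians lie at -0.37 and -0.45, and at 48 h those of the Siglec and galectin genes lie at 0.46 and 0.52.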

How the data were processed

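Poly(A) RNA of 8 libraries in 4 groups was measured. The submitters' processing notes name the build mm10 and the tools Cuffdiff, Cufflinks 2.1 and Bowtie2, without role or order. Strandedness and annotation are not stated there. Per the file headers, the deposited table has a single FPKM per gene and group, with the 2 libraries of a group already combined, and at each time the authors' q-value of the genotype contrast. It holds no counts, so no depth, interval or SD could be computed, and q rests on 2 libraries a group, which the submitters call biological duplicates. FPKM is relative to all RNA in a library.

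From these values, with Python 3.11.15, pandas 2.3.3 and numpy 2.4.6, ratios and log2(FPKM + 1) differences were computed. Genes reaching 1 FPKM in any group were taken as expressed (11158, without 27 rows whose names had become date numbers), and those with q under 1 as tested. Locus starts became 1-based by adding 1, which matched RefSeq starts for 10550 of 21414 genes, against 673 as written. No test was fitted, because each group has 1 value. All 10 members are described. From each other list, up to 4 genes called at 48 h with the widest log2 difference are named, plus the 5 nearest profiles; Slc35a1, Nans, Cmas, Dcps, the ganglioside genes and the neighbours of St6galnac2 were named after their values were seen. Members, lists and rules were chosen with earlier results of these data known. Alternatives were other pseudocounts, filters, scalings and q limits; the scaling and profile steps were tested on simulated data.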

Additional observations from a re-analysis of the deposited data

Results flagged for a closer look

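Among the sialyltransferases and the genes listed around them, St3gal5, Siglec1 and C1galt1 were called in opposite directions at 24 and 48 h. The difference between the times was not tested. The share of all genes with opposite calls was not computed, so nothing is read from the number of such genes. St3gal5 stood at 0.795 FPKM in floxed and 1.20 FPKM in wild type cells at 24 h, and at 1.66 and 0.624 FPKM at 48 h, so its log2 difference changed by 1.005 between the times. Siglec1, a sialic acid receptor of macrophages, stood at 1.02 and 3.70 FPKM at 24 h and at 1.94 and 1.12 FPKM at 48 h, a change of 1.698. C1galt1, the galactosyltransferase of core 1 O-glycans, stood at 14.5 and 11.1 FPKM at 24 h and at 8.27 and 12.5 FPKM at 48 h, a change of -0.904. The wild type level of Siglec1 differed more between the times than its floxed level did.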

How the results depend on the processing

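All sialyltransferase calls kept their direction when the groups were rescaled to the same FPKM sum, by TMM factors or by quantile normalization. With a 2-fold minimum added to q under 0.05, 1 member was called at 24 h (St6galnac2) and 2 at 48 h (St6galnac2 and St6galnac4), and all-gene calls fell to 347 at 24 h and 1705 at 48 h. With q under 0.01, 5 members were called at 24 h and 6 at 48 h, without St3gal1 at 24 h and St6galnac6 at 48 h, and 1997 genes of all at 24 h. With a pseudocount of 5 the median log2 difference of the members was -0.25 at 24 h and -0.33 at 48 h. Over 61 named genes and 698 alternative values, 0 called values changed sign, 11 lost a call at q under 0.01 and 16 uncalled values shifted by 0.1 or more; called values were checked for sign and call only. Their size depends on the pseudocount: the log2 difference of St6galnac2 was 7.47 at 24 h and 6.70 at 48 h with a pseudocount of 0.1, and 2.63 and 2.09 with 5, and that of St6galnac4 at 48 h was -1.37 and -0.94. Leaving out a replicate could not be run, because duplicates are combined. No paired analysis was possible because the table holds no values per library.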

Other observations

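Leaving out small RNAs, 6 genes of the table were below 0.1 FPKM in wild type cells and at 5 FPKM or more in floxed cells at both times, a limit chosen after the values were seen. Of these, 3 lie together on chromosome 11: St6galnac2, BC018473 and St6galnac1. Epx, the eosinophil peroxidase, is on chromosome 11 too, but not within 200 kb of St6galnac2. It stood at 11.6 FPKM in floxed and 0.0526 FPKM in wild type cells at 24 h and at 5.49 and 0.0331 FPKM at 48 h. The others were the ceramide synthase gene Cers4 and Xlr4a. Cers4 stood at 11.5 and 0.0708 FPKM at 24 h and at 11.2 and 0.0570 FPKM at 48 h. For Xlr4a the values were 6.06 and 0.0133 FPKM and then 11.0 and 0.0143 FPKM. Xlr4a and St6galnac1 had no call at either time, with q from 0.246 to 0.422 in the authors' deposited table.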
